A study of Bos taurus with 20 samples.

Results

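The genes described here encode the contractile proteins and calcium pump system of slow skeletal muscle fibres: MYH7, MYL2, MYL3, MYL6B, TNNT1, TNNI1, TNNC1, TPM3, ATP2A2 and PLN. They were chosen by name, with earlier results of these data known. Every probe set that the platform annotation assigned to exactly 1 of these 10 symbols was used, which gave 18 of the 24016 non-control probe sets and 9 of the 10 genes. TNNI1, the slow troponin I, had no probe set that carried its symbol alone and was not analysed here. Of the 18 probe sets, 17 passed the filter on dim probe sets. The dimmest of 3 MYH7 probe sets, with a mean of 3.11 on the log2 scale, did not pass. Where a gene has several probe sets they are named by their brightness.

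Slow fibres contract with low speed and resist fatigue, and they draw most of their energy from oxidative metabolism. A myosin heavy chain pulls on actin with the help of its light chains, while troponin and tropomyosin open the thin filament when calcium binds troponin C. The muscle relaxes when a calcium pump in the sarcoplasmic reticulum, encoded in slow fibres by ATP2A2, takes the calcium back up. Phospholamban, the product of PLN, restrains that pump until it is phosphorylated. The longissimus dorsi of cattle is a mixed muscle in which slow fibres lie among a majority of fast ones.

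The study compared longissimus dorsi from F2 crossbred bulls of Holstein and Charolais, 10 with a high and 10 with a low content of intramuscular fat (IMF). Total RNA of each animal was hybridised to 1 Affymetrix cattle array, with no treatment and no pooling named in the labels. The titles are of 2 kinds: in each IMF group, 5 titles carry an S before the number (called S animals here) and 5 do not (other animals). The meaning of the S is unknown, and no age is given. The 4 combinations of IMF group and title kind are called cells, with 5 animals in each. Values are log2(deposited intensity + 1) in the deposited scaling unless centred values are named, and n is the number of animals.

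The 20 arrays had median intensities of 51.6 to 67.6. The 2 lowest, 51.6 and 56.6, belonged to high IMF replicates 6 and 9, both S animals. S arrays stood apart from the others in spike-in controls, whose mean log2 intensity was 9.87 to 10.60 in S animals and 10.68 to 10.88 in the others. The difference between the 3′ and 5′ probe sets of the actin control was -0.74 to -0.17 on the log2 scale in S animals and -0.37 to 0.01 in the others. Albumin, a liver transcript, exceeded an intensity of 2000 on 4 arrays, 3 of them from S animals. Summed intensities of 7 of 9 skeletal fibre markers were 81323 to 96295 in S animals and 93106 to 99038 in the others, none of the 7 was at 0 on any array, and MYH2 and TTN had no probe set of their own. The muscle label was therefore borne out by its markers on every array, while cardiac markers (4 of 7 on the array) summed to only 254 to 595 and TNNI3, the cardiac troponin I, was at 0 on 1 array.

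Across IMF groups the slow genes stood somewhat lower in high IMF animals, and none passed the test. All 17 tested probe sets had a lower mean in high than in low IMF, beside 59.8% of all 14409 probe sets tested. After each array was centred on its median, 15 of the 17 were lower, beside 46.7% of all probe sets. The 17 probe sets come from 9 genes, some of them read more than once, so they are not separate results. Some turned sign without the 2 arrays of lowest median or without the 4 high in albumin, among them the brightest of ATP2A2 (0.0014 and 0.013). All S animals left out in these subsets had high IMF, and the fit had no title covariate. Within S and other animals the brightest ATP2A2 probe set differed by -0.035 and -0.052 without the arrays of lowest median. Without the arrays high in albumin it differed by -0.18 and -0.050. The median difference (high minus low) over the 17 was -0.16 on the log2 scale against -0.03 over all probe sets, and -0.12 against 0.01 after centring. No probe set of any gene was called in this comparison by limma at a Benjamini-Hochberg adjusted p of 0.05 (percent called 0, smallest adjusted p 0.9997). At an unadjusted p under 0.05 there was 1 member of 17, TNNT1, beside 239 probe sets or 1.66% of all. With the title kind as a covariate in limma there were 4 of 17, beside 7.34% of all. Again no probe set of any gene was called (smallest limma adjusted p 0.45). The methods' t-test, run unpaired with unequal variances because the labels pair no animals, also called no member after adjustment.

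Between S and other animals, by contrast, most probe sets of the whole array were called. There the calcium pump and its inhibitor were lower in S animals, while most contractile genes did not pass the test. Of the 17 probe sets, 11 had a lower mean in S animals, beside 50.1% of all, and 7 were called, all 7 lower. This count has to be read against a background in which 68.3% of all probe sets were called and 34.8% were called lower. After centring 6 of 17 were called, beside 69.6% of all (31.9% lower, 37.7% higher). The called probe sets were all 3 of PLN, 3 of the 4 of ATP2A2 and 1 of 2 of TNNC1. Ranked by limma p among the 14409 tested, the brightest ATP2A2 probe set stood at 4191 and the brightest PLN probe set at 4538. The lowest rank number of a member was 2094, for the dimmest PLN probe set. The contractile probe sets that were not called differed by -0.09 (second TNNC1) to 0.30 (MYL6B). Whether the share of slow fibres or the level of these RNAs per fibre differed was not tested in this whole muscle.

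**Figure D1:**
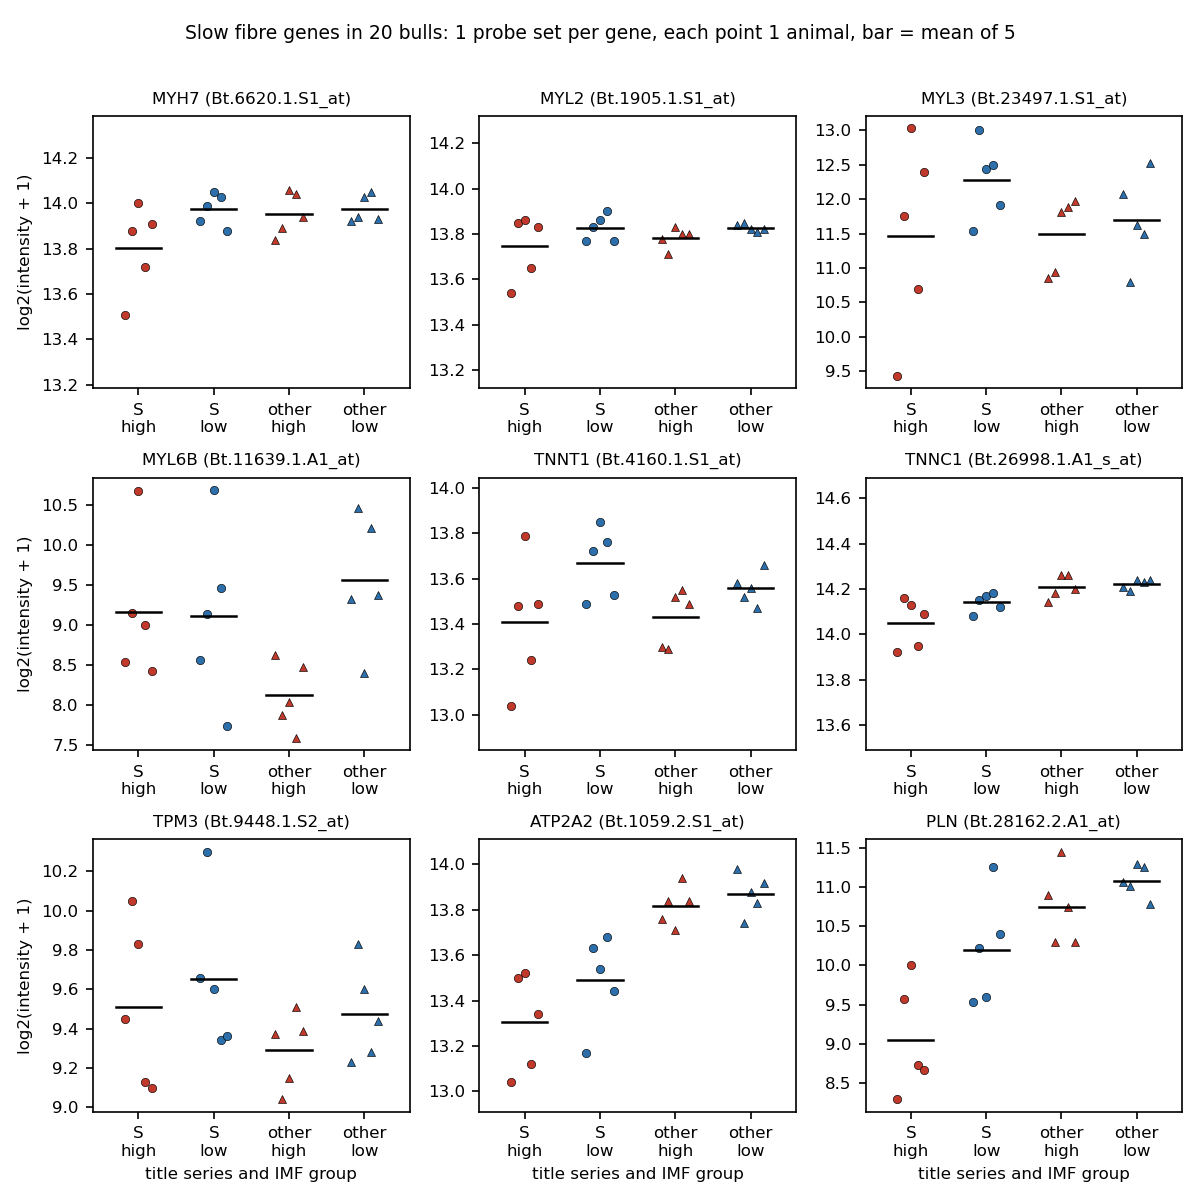
Each panel plots log2(intensity + 1) of a gene's brightest probe set for every animal, in the 4 cells of IMF group and title kind, with a bar at the mean of 5 animals; the vertical scale differs between panels. PLN and ATP2A2 sit lower in the S animals, MYL6B is low in high IMF animals without an S, and MYH7, MYL2 and TNNC1 vary over small ranges.

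The heavy chain MYH7, the motor of slow and of cardiac myofibrils, varied little. Its brightest probe set read 13.51, 13.72, 13.88, 13.91 and 14.00 in high IMF S animals and 13.88, 13.92, 13.99, 14.03 and 14.05 in low IMF S animals. Among the other animals it read 13.84, 13.89, 13.94, 14.04 and 14.06 with high IMF, and 13.92, 13.93, 13.94, 14.03 and 14.05 with low IMF. The groups overlapped throughout, and the lowest pair of values came from the 2 arrays with the lowest medians. The mean was 13.88 ± 0.16 (SD, n = 10) in high and 13.98 ± 0.06 (SD, n = 10) in low IMF, a difference of -0.10 (SE 0.077) that limma did not call. The second MYH7 probe set ranged from 11.44 to 12.15 and differed by -0.02 (SE 0.089), and its correlation with the first was -0.18 over 20 animals. The probe sets of MYH7 thus did not order the animals alike, which limits what either says of the gene.

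MYL2, the regulatory light chain of slow myosin, was the steadiest light chain. It ranged from 13.54 to 13.90 over the 20 animals, with its lowest values, 13.54 and 13.65, again on the 2 dimmest arrays. High and low IMF differed by -0.06 (SE 0.066), and S and other animals by -0.02 with the deposited scaling and 0.05 after centring, so the direction of the latter depends on the scaling.

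MYL3, the essential light chain shared by slow fibres and the ventricle, differed widely between animals. In S animals it read 9.43, 10.70, 11.76, 12.39 and 13.03 with high IMF and 11.54, 11.92, 12.44, 12.49 and 13 with low IMF. In the other animals it read 10.86, 10.94, 11.82, 11.88 and 11.98 with high IMF and 10.80, 11.49, 11.62, 12.08 and 12.52 with low IMF. The highest and the lowest value of all 20 both came from high IMF S animals, and every cell overlapped every other. High minus low IMF was -0.51 (SE 0.35, 95% interval -1.25 to 0.22), a ratio of 0.701, with an unadjusted limma p of 0.161. Without the 2 dimmest arrays, which held 9.43 and 10.70, the difference was -0.16. S and other animals differed by 0.27 (SE 0.35) and the call failed. Without those 2 arrays the difference was 0.72 with a limma adjusted p of 0.0169, the only one of 28 alternatives that gave a call. Of the 28, 20 left out 1 animal each.

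MYL6B, an essential light chain found in slow fibres and in some non-muscle cells, was the only member under an unadjusted p of 0.05 within the other animals. In the other animals it read 7.59, 7.87, 8.03, 8.48 and 8.62 with high IMF and 8.40, 9.33, 9.38, 10.22 and 10.47 with low IMF. In S animals the values were 8.43, 8.54, 9.0, 9.15 and 10.68 with high IMF and 7.74, 8.56, 9.14, 9.46 and 10.69 with low IMF. Among the other animals 3 of 5 high IMF values lay below the lowest low IMF value and 4 of 5 low IMF values above the highest high IMF value, whereas the S animals overlapped fully.

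The cell means of MYL6B were 8.12 ± 0.43 and 9.56 ± 0.82 (SD, n = 5 each) for high and low IMF among the other animals, and 9.16 ± 0.90 and 9.12 ± 1.09 among S animals. High minus low was -1.44 (SE 0.49, 95% interval -2.45 to -0.43) in the other animals, a ratio of 0.368, with an unadjusted limma p of 0.00762 and an adjusted p of 1.0. It was 0.04 (SE 0.49) in S animals. The difference between these effects was 1.48 (95% interval 0.047 to 2.91), with an unadjusted limma p of 0.0436 and an adjusted p of 0.866, so it was not called. In all, 3.38% of probe sets had an unadjusted p under 0.05 within the other animals and 5.34% in the test of the difference, where 69.3% of values were below 0. Over all 20 animals the difference was -0.70 (SE 0.37, unadjusted limma p = 0.0741), and it was -1.05 (unadjusted p = 0.0102) without the 4 arrays high in albumin, 1 of which held the high IMF value of 10.68.

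In the thin filament, TNNT1, the slow troponin T that ties the troponin complex to tropomyosin, came nearest to an IMF difference in its unadjusted p. It read 13.04, 13.24, 13.48, 13.49 and 13.79 in high IMF S animals and 13.49, 13.53, 13.72, 13.76 and 13.85 in low IMF S animals. In the other animals it read 13.29, 13.30, 13.49, 13.52 and 13.55 with high IMF and 13.47, 13.52, 13.56, 13.58 and 13.66 with low IMF. In both title kinds the lowest values belonged to high IMF animals. Of the low IMF values, 3 of 5 among the other animals and 1 of 5 among S animals lay above the highest high IMF value.

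The difference for TNNT1 was -0.19 (SE 0.091, 95% interval -0.38 to -0.0045), with an unadjusted limma p of 0.0452 and an adjusted p of 0.9997, so it was not called. It was -0.15 after centring and -0.12 without the 2 dimmest arrays. It was -0.26 (SE 0.12) within S animals, and -0.079 there without the 2 dimmest arrays. Among the other animals it was -0.13 (SE 0.12). S and other animals differed by 0.04.

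TNNC1, the calcium-binding troponin C of slow and cardiac muscle, had the narrowest spread of the troponins. Its brighter probe set read 13.92, 13.95, 14.09, 14.13 and 14.16 in high IMF S animals and 14.08, 14.12, 14.15, 14.17 and 14.18 in low IMF S animals. The other animals lay at 14.14 to 14.26 with high IMF and 14.19 to 14.24 with low IMF. S animals were thus mostly below the others with a small overlap, at 14.09 ± 0.09 against 14.21 ± 0.04 (SD, n = 10 each).

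That gap of -0.12 (SE 0.052) for TNNC1 had a limma adjusted p of 0.0488. The call was lost after centring, where the gap was -0.05 (adjusted p = 0.377), and with quantile normalization the sign turned to 0.03. It passed in 7 of 28 alternatives, 20 of which left out 1 animal each, with limma adjusted p of 0.0343 to 0.691. The second TNNC1 probe set spanned 13.63 to 13.91 and was not called (-0.09, limma adjusted p = 0.143).

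TPM3, which encodes the slow tropomyosin among other isoforms, was not called in any comparison. Its brighter probe set ranged from 9.04 to 10.05 in high IMF and from 9.23 to 10.30 in low IMF animals, where 4 of 10 high IMF values lay below the lowest low IMF value and 1 low IMF value above the highest high IMF value, with means of 9.40 ± 0.33 and 9.56 ± 0.32 (SD, n = 10 each). S animals were at 9.58 ± 0.39 and the others at 9.38 ± 0.23, a difference of 0.20 (SE 0.14, limma adjusted p = 0.202). After centring it was 0.26 (SE 0.13, limma adjusted p = 0.0731). The second probe set pointed the same way, with a difference of 0.28 (SE 0.18).

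**Figure D2:**
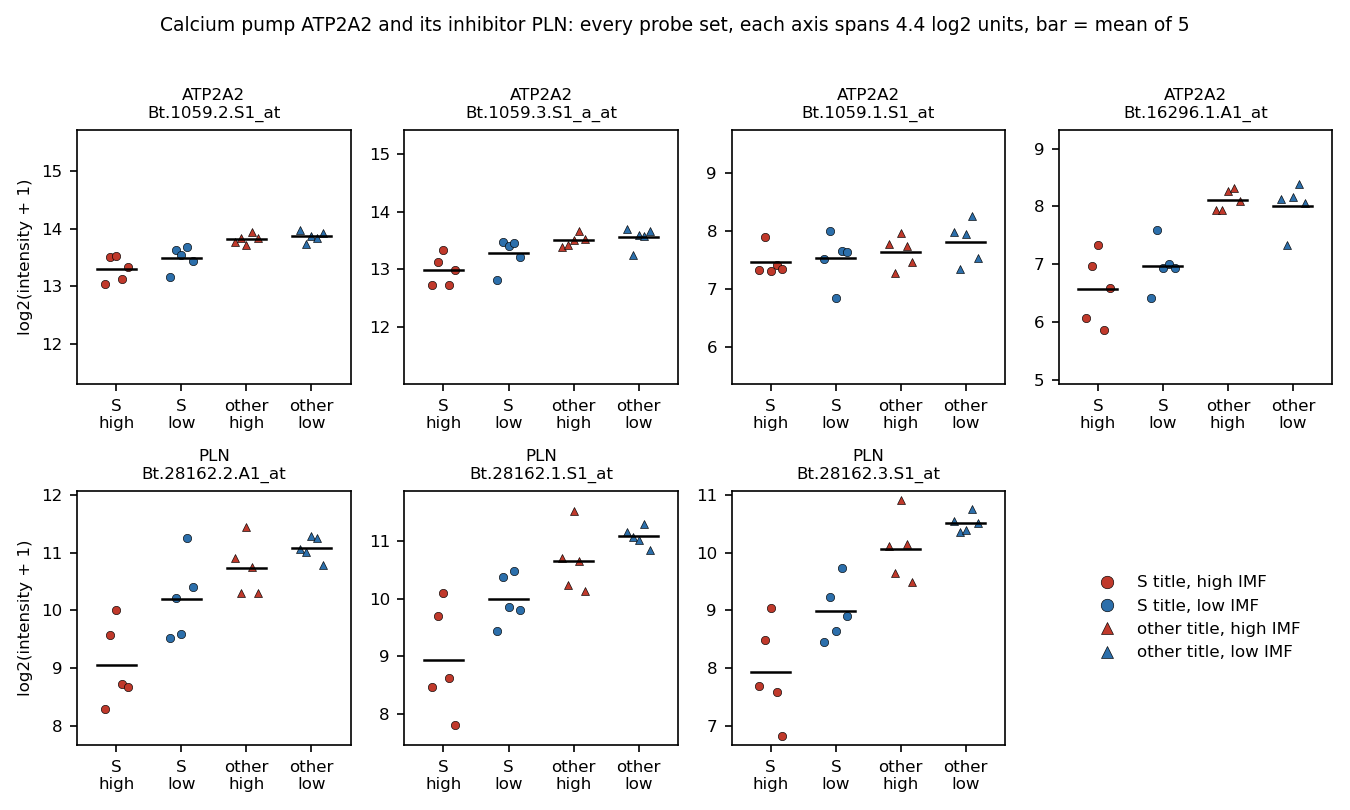
Panels plot log2(intensity + 1) per animal for the 4 ATP2A2 and 3 PLN probe sets in the 4 cells, each axis spanning 4.4 log2 units, with a bar at the mean of 5 animals. Panels carry probe set identifiers and run from the brightest to the dimmest within a gene. The mean of S animals lies below that of the others in all 7, and the third ATP2A2 panel shows the smallest gap.

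ATP2A2 encodes SERCA2, the sarcoplasmic reticulum pump of slow and cardiac muscle. Its brightest probe set read 13.04, 13.12, 13.34, 13.50 and 13.52 in high IMF S animals and 13.17, 13.44, 13.54, 13.63 and 13.68 in low IMF S animals. In the other animals it read 13.71, 13.76, 13.84, 13.84 and 13.94 with high IMF and 13.74, 13.83, 13.88, 13.92 and 13.98 with low IMF. Every S animal was below every other animal, the only member probe set of 17 for which this held. Such a separation, in either direction, was found for 19.6% of all probe sets, and 9.27% had all S animals below.

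ATP2A2 fell in S animals by 0.44 on the log2 scale by this probe set (SE 0.079, ratio 0.735, limma adjusted p = 5.12e-05). The second was lower by a log2 difference of -0.40 (SE 0.10, limma adjusted p = 0.00134), and its values of 12.73 to 13.48 in S animals overlapped the 13.24 to 13.70 of the others. The dimmest differed by -1.29 (SE 0.18, ratio 0.408, limma adjusted p = 3.17e-06), with 5.86 to 7.59 in S animals and 7.33 to 8.39 in the others. The third brightest ranged from 6.85 to 8.26 and was not called (-0.23, SE 0.14, limma adjusted p = 0.141). The brightest and the second had means of 13.62 and 13.33, near the top of the intensity scale. How far the scale limits their differences was not tested.

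The brightest, the second and the dimmest ATP2A2 probe sets correlated at 0.89 to 0.94 over 20 animals, a description that includes the gap between title kinds. Within the cells these correlations were 0.65 to 0.92, and the brightest and the dimmest correlated at 0.38 within the other animals. The third correlated with them at 0.21 to 0.40. IMF groups differed by -0.12 to -0.17 over the 4 probe sets, and none was called by limma. Within S animals the second ATP2A2 probe set differed by -0.29 between high and low IMF (SE 0.14, unadjusted limma p = 0.0468), and was not called.

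PLN encodes the small membrane protein phospholamban. Its brightest probe set read 8.29, 8.67, 8.73, 9.57 and 10 in high IMF S animals and 9.53, 9.60, 10.22, 10.40 and 11.25 in low IMF S animals. In the other animals it read 10.30, 10.30, 10.75, 10.90 and 11.45 with high IMF and 10.78, 11.01, 11.07, 11.25 and 11.29 with low IMF. The high IMF S animals were the lowest cell, all 5 below every animal without an S, and 3 of the 5 low IMF S animals were also below all of the others.

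PLN was lower in S animals by all 3 probe sets. The log2 difference was -1.28 (SE 0.24, 95% interval -1.78 to -0.78) for the brightest, a ratio of 0.411 with a limma adjusted p of 8.59e-05. For the second it was -1.40 (SE 0.24, ratio 0.379, limma adjusted p = 4.08e-05), and for the dimmest -1.83 (SE 0.24, ratio 0.282, limma adjusted p = 1.30e-06). The 3 probe sets correlated at 0.94 to 0.98 over 20 animals, so they are repeat readings of 1 gene and not separate results. The calls of PLN and of the 3 ATP2A2 probe sets held in 28 of 28 alternatives, with a highest limma adjusted p of 0.00863. Of the 28 alternatives, 20 left out 1 animal each. The rest included both rescalings and the fits without the dimmest or the albumin-high arrays. The spike-in level and the actin ratio also differed between S and other arrays, and their part in these differences was not tested.

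Markers of other cell types also differed between title kinds. Of all probe sets, 33.4% were called higher and 34.8% lower in S animals. Macrophage markers, 3 of 4 on the array, summed to 237 to 377 in S and 101 to 244 in other animals, and both of the tested ones were called higher in S animals by limma, CSF1R by 0.83 and CD14 by 0.91. Of the 3 tested endothelial markers PECAM1 (0.34) and CDH5 (0.39) were called higher, and the third was lower and not called. Sums of all 5 endothelial markers were 785 to 1365 in S and 695 to 1221 in other animals. Adipocyte markers (5 of 6 on the array) summed to 1005 to 18213 in S and 1330 to 5041 in other animals. Of the 3 tested, CIDEC (1.84) and FABP4 (1.45) were called higher and LPL (-0.73) lower. Liver markers (6 of 6) summed to 1387 to 19831 in S and 564 to 13399 in other animals, and of the 4 tested 2 were called higher and 0 lower. None of these markers was at 0 on any array, and their part in the lower PLN and ATP2A2 of S animals was not tested.

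PLN also stood lower in high IMF animals. The 10 high IMF animals ranged from 8.29 to 11.45 with a median of 10.15, and the 10 low IMF animals from 9.53 to 11.29 with a median of 10.90. The ranges overlapped over most of their length, and the difference of -0.74 (SE 0.37, 95% interval -1.51 to 0.016, ratio 0.597) had an unadjusted limma p of 0.0545. With the title kind as a covariate the unadjusted p values of the 3 probe sets were 0.00542, 0.00662 and 0.00476 and the limma adjusted p was 0.676 for each, where 7.34% of all probe sets had an unadjusted p under 0.05. In that fit 4 of 17 members, the 3 PLN probe sets and TNNT1 (p = 0.0311), were under 0.05 unadjusted, and none was called. In the fit without that covariate the difference shrank to -0.40 without the 2 dimmest arrays and to -0.28 without the 4 high in albumin. All S animals left out in these subsets had high IMF. Within S and other animals PLN differed by -0.79 and -0.34 without the 2 dimmest arrays. Without the 4 high in albumin it differed by -1.05 and -0.29.

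Within S animals PLN differed by -1.15 between high and low IMF (SE 0.32, 95% interval -1.83 to -0.47, ratio 0.451), with an unadjusted limma p of 0.00208. Here 3 of 5 high IMF values were below the lowest low IMF value. No probe set was called in this contrast, in which 9.9% of all had an unadjusted p under 0.05 and 8.47% had it in the lower direction. The 5 members under 0.05 were the 3 PLN probe sets, TNNT1 and 1 of ATP2A2. Among the other animals PLN differed by -0.34, and the difference between these effects, -0.81 (SE 0.46), had an unadjusted limma p of 0.0938 and was not called.

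**Figure D3:**
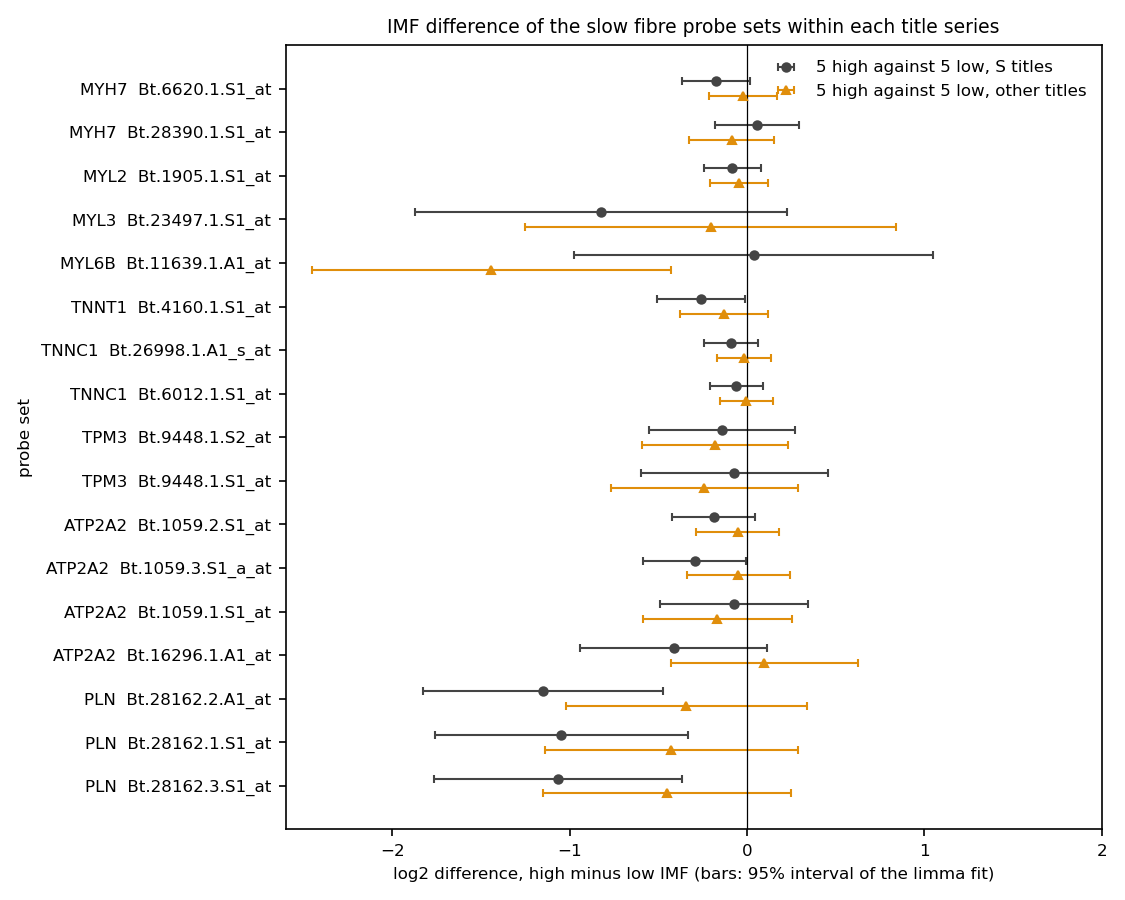
Points give the high minus low IMF difference (log2 scale) of each of the 17 probe sets within S animals and within other animals, with the 95% interval from limma. PLN lies farthest below 0 in S animals and MYL6B in the others, and most other intervals include 0.

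Of the 17 probe sets, 15 were lower in high IMF within S animals and 16 within the other animals, beside 67.5% and 47.4% of all probe sets. After centring the count within the other animals was 13. Within S animals the lower values included the 2 dimmest arrays of the series, and without them PLN differed by -0.79 (unadjusted limma p = 0.0371) and MYL3 by 0.11, a turn of direction. TNNT1 then differed by -0.079 (unadjusted limma p = 0.492), and the brightest ATP2A2 probe set by -0.035 in place of -0.19. Smooth muscle and pericyte markers, which include cells that also express PLN, were summed over all 9 listed genes: 4128 to 7023 in high and 4140 to 7740 in low IMF, 4844 to 7740 in S and 4128 to 6546 in other animals, with none at 0 on any array. Those sums overlapped between the groups. Between title kinds limma called 3 of the 9 markers lower and 4 higher in S animals, beside 34.8% and 33.4% of all probe sets. Of the 9, 8 were higher in high IMF and none was called. Adipocyte markers, 5 of 6 on the array and none at 0, summed to 1525 to 18213 in high and 1005 to 8869 in low IMF. The part of fat tissue in the IMF differences was not tested.

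The members differed widely in their spread between animals. MYL3 had an SD of 0.87 over 20 animals and a 12.1-fold range, above 97.3% of all probe sets tested. MYL6B had an SD of 0.95 (8.56-fold range, percentile 98.1) and the PLN probe sets had SDs of 0.94 to 1.16 (8.94-fold to 17.1-fold, percentiles 98.1 to 99.3). Since PLN differed between title kinds, its SD within the 4 cells was lower, 0.56 to 0.59, whereas MYL3 and MYL6B kept 0.88 and 0.85 within cells, at percentiles 99.2 and 99.1.

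At the other end stood the brightest MYH7 probe set with an SD of 0.13 (1.47-fold range, percentile 1.21), MYL2 with 0.082 (1.28-fold, percentile 0.146) and the 2 TNNC1 probe sets with 0.091 and 0.073. TNNT1 had 0.20 (1.75-fold, percentile 9.02), which is above the median SD of 0.151 at a mean of 13 or more. TPM3 had 0.33 and 0.43 (percentiles 43.6 and 65.5), and ATP2A2 had 0.28, 0.31, 0.34 and, for the dimmest probe set, 0.79 (percentiles 30.6 to 95.5). The 7 members with a mean log2 of 13 or more share that brightness with only 140 probe sets, 0.583% of all. Spread falls with brightness on these arrays: the median SD was 0.376 below a mean of 8 and 0.151 at 13 or more. The narrow ranges of the brightest MYH7 probe set, of MYL2 and of TNNC1 were therefore measured near the top of the intensity scale. There the brighter TNNC1 probe set read at 118% or more of each array's 99.9th percentile, and how far the scale limits these ranges was not tested. The second MYH7 probe set, with a mean of 11.83, also had a small SD of 0.16 (percentile 3.90). The median SD at means of 10 to 12 was 0.290.

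**Figure D4:**
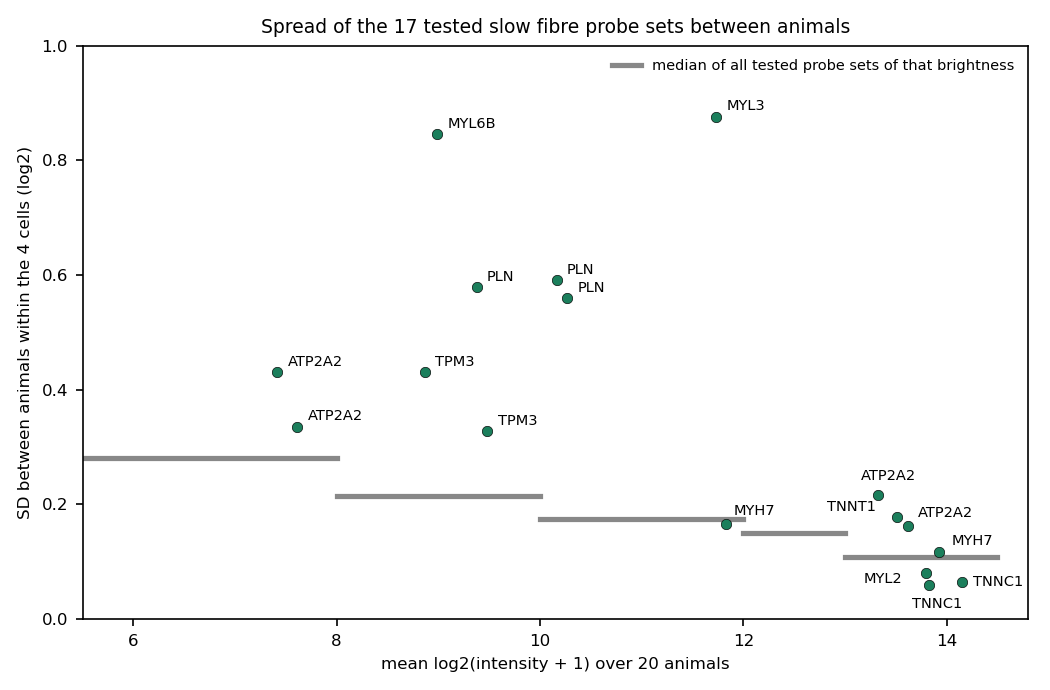
SD within the 4 cells against the mean log2(intensity + 1) for the 17 probe sets, with grey lines at the median SD of all tested probe sets in each class of brightness. MYL3, MYL6B and the PLN probe sets lie far above the line for their brightness, and the brightest probe sets of MYH7, MYL2, TNNT1 and TNNC1 lie low on the scale. Against the line for means of 13 or more (0.11), MYL2 (0.081) and the brighter TNNC1 (0.065) lie below. The brightest MYH7 (0.12) lies slightly above it, and TNNT1 (0.18) lies above it.

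Correlations among members were computed on centred arrays with the brightest probe set of each gene. ATP2A2 and PLN were left out of the pooled values because their levels differed between title kinds, which leaves 21 pairs of 7 genes. Of these, 17 were positive, with a median Pearson r of 0.34 and a range of -0.16 to 0.79, and 5 passed a two-sided permutation test with 100000 resamples after Benjamini-Hochberg adjustment over the 21 pairs. All pairs share their arrays, so brightness of an array can enter them in spite of the centring. An r of at least 0.5 was reached by 8 of 21 pairs (38.1%), beside 19.9% of all pairs of tested probe sets, and an r of at least 0.7 by 3 (14.3%), beside 8.86%. Both backgrounds include the wide differences between title kinds, and neither was matched to the brightness of the members.

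The closest pair was MYL3 with TNNT1, a myosin light chain and a thin filament protein. Pearson's r was 0.79 (permutation p = 4e-05, adjusted 0.00084) and Spearman's rho 0.75 (permutation p = 0.00015, adjusted 0.00315), and r was 0.78 without the 2 animals farthest from the median of MYL3. It was 0.78 within S animals (permutation p = 0.00567, adjusted over 36 pairs 0.102) and 0.78 within the others (permutation p = 0.00456, adjusted 0.0798), with rho of 0.83 and 0.49. Taken as deviations from the 4 cell means it was 0.76 (permutation p = 0.00018, adjusted 0.00588). The pair thus passed over all animals and beyond the group means, and it did not pass within either title kind alone.

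MYH7 and TNNT1 had r = 0.71 (permutation p = 0.00045, adjusted 0.00336) and rho = 0.72 (permutation p = 0.0004, adjusted 0.0042), with 0.51 without the 2 animals farthest from the median of MYH7. Within S animals r was 0.94 (permutation p = 5e-05, adjusted 0.0018), the only pair called there. Within the others it was 0.55 and, without the 2 farthest, 0.0007, so that the relation rests on those animals. MYL2 and TNNT1 had r = 0.72 (permutation p = 0.00048, adjusted 0.00336) with rho = 0.54 (permutation p = 0.0155, adjusted 0.0814), and 0.50 without the 2 farthest. The last called pairs were MYH7 with MYL2 (r = 0.59, permutation p = 0.00659, adjusted 0.0346; rho = 0.39, permutation p = 0.0904) and MYH7 with TNNC1 (r = 0.57, permutation p = 0.00887, adjusted 0.0373; rho = 0.50, permutation p = 0.0276). Their r dropped to 0.31 and 0.44 without the 2 farthest animals. All MYH7 pairs here use its brightest probe set. The second MYH7 probe set correlated with the brightest at -0.61 within S animals, and its pairs with other genes were not tested.

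As deviations from the 4 cell means all 9 genes could be paired, and 7 of 36 pairs passed, all positive. At least 0.7 was reached by 3 of 36 pairs (8.33%), beside 0.988% of all pairs of probe sets, and at least 0.5 by 10 of 36 (27.8%), beside 6.6%. These backgrounds too were not matched for brightness. Of the 14409 probe sets tested 9154 had a mean below 8, whereas the brightest probe set of every member lay above 8. ATP2A2 joined the contractile genes here, with r = 0.57 to MYL3 (permutation p = 0.00311, adjusted 0.0275; rho = 0.63, permutation p = 0.00476) and 0.63 to TNNT1 (permutation p = 0.00946, adjusted 0.0487; rho = 0.66, permutation p = 0.00638). These were 0.62 and 0.59 without the 2 farthest animals.

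ATP2A2 and PLN, the pump and its inhibitor, did not pass together: r was 0.37 as deviations from cell means (permutation p = 0.239, adjusted 0.5) with rho = 0.25 (permutation p = 0.377). It was 0.73 within S animals (permutation p = 0.0158, adjusted 0.123) and -0.43 within the others (permutation p = 0.212, adjusted 0.637). TPM3 had r of -0.04 to 0.26 with the other members within cells.

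**Figure D5:**
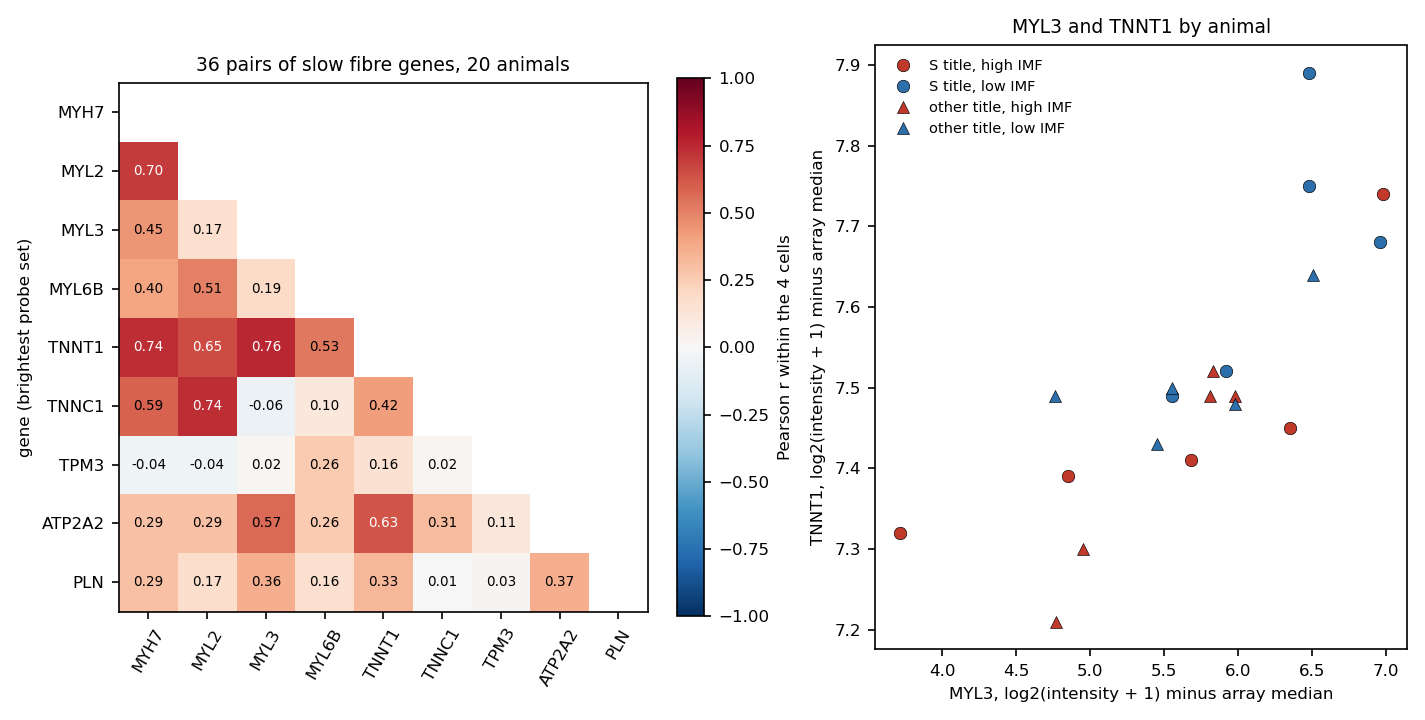
The left panel is a heat map of Pearson r for the 36 pairs of 9 genes, as deviations from the 4 cell means on centred arrays; the right panel plots centred log2 MYL3 against TNNT1 for each of the 20 animals, by cell. MYL3 and TNNT1 rise together (r = 0.79 over 20 animals, 0.76 within cells), and TPM3 is the palest row.

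The mean over the 9 genes was 12.02 ± 0.31 (SD, n = 10) in high and 12.31 ± 0.18 (SD, n = 10) in low IMF animals, with 6.03 ± 0.22 and 6.29 ± 0.17 after centring. It was 12.10 ± 0.37 in S and 12.23 ± 0.17 in other animals. High IMF animals spanned 11.42 to 12.54 and low IMF animals 11.97 to 12.46, so the high group held both ends, and its lowest values, 11.42 and 11.69, came from the 2 dimmest arrays. Genes were not scaled to equal spread, so MYL3, MYL6B and PLN, which vary most, weigh most in how these means differ between animals. The means have no test, since the members were chosen with results known. The 6 genes outside the members whose centred levels followed this mean most closely over 20 animals were FMNL3 (r = 0.84), MMP16 (0.80), SCD5 (0.74), MASP1 (0.72), SLC51B (0.71) and PDLIM1 (0.71).

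Other slow and cardiac sarcomere genes were read from a list of 18, of which 13 were on the array and 12 were tested. Against IMF 9 of the 12 were lower, 7 after centring, and none was called by limma, with MYOZ2, a Z disc protein that binds calcineurin, at -0.60 (SE 0.37) and MYL4, the atrial light chain, at -0.41. Between title kinds 6 were called lower and 2 higher in S animals, beside 34.8% and 33.4% of all probe sets. MYBPC1, the slow myosin binding protein C, differed by -0.51 (limma adjusted p = 3.47e-07) and the stress-induced ANKRD1 by -1.17 (limma adjusted p = 2.44e-06).

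Of the fast counterparts 10 of 16 were tested. Against IMF 6 of 10 were lower, 2 of 10 after centring, and limma called none. Between title kinds 1 was called lower and 3 higher in S animals, beside 34.8% and 33.4% of all probe sets. After centring none was called lower and 4 higher, beside 31.9% and 37.7%. ATP2A1, the fast fibre pump SERCA1, differed by 0.63 (SE 0.079, limma adjusted p = 6.80e-07), opposite in direction to ATP2A2, and ACTN3, the fast fibre alpha-actinin, by 0.19 (limma adjusted p = 0.00247).

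Of 37 genes of calcium handling and its regulators, 20 were tested and 11 were lower in high IMF, 8 after centring, none called by limma. PPARGC1A, a coactivator that drives oxidative fibre programmes, was at -0.43 with an unadjusted limma p of 0.217. Between title kinds 10 were called lower and 9 higher in S animals, beside 34.8% and 33.4% of all probe sets. PPP3R1, the regulatory subunit of calcineurin, differed by -1.67 (limma adjusted p = 6.38e-11) and the store-operated channel ORAI1 by 1.08 (limma adjusted p = 8.68e-10).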

How the data were processed

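Gene expression was measured with Affymetrix cattle arrays in longissimus dorsi of 20 bulls, 1 array each. The deposited values are linear probe set intensities, made by the authors with GCOS 1.1.1 and Affymetrix Expression Console 1.1, per the submitters' processing notes. How probes were summarised into probe sets is not given there. Of 24128 probe sets, 112 controls were removed and the lowest 40% by mean were left out, so 14409 were tested. The platform annotation gives 1 symbol for 13318 probe sets, several for 86 and none for 10724; all 18 member probe sets matched the RefSeq gene table under the same symbol.

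Log2(intensity + 1) was fitted with limma 3.58.1 in R 4.3.3 (lmFit and eBayes, two-sided), with Benjamini-Hochberg adjustment over all tested probe sets and a threshold of 0.05. IMF groups were compared without a covariate; title kinds, set from the titles, with the IMF group as a covariate; contrasts within title kinds, and their difference, in a model of the 4 cells. Permutation tests used 100000 resamples. Self-tests on simulated data were run for each fit. P-values measure the spread between animals, each with 1 array, whose number limits the precision. Arrays centred on medians, quantile normalization, other pseudocounts and filters, other covariates, and arrays or animals left out were alternatives, and 3 of them, which pair the title kind as a covariate with another change, were added after the data were seen.

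Named genes are every member, the 2 genes per list with the smallest p in the IMF and in the title comparison (some are not printed), and the 6 genes most alike to the members' mean. The members and lists were chosen with earlier results of these data known. Marker lists of 7 cell types were summed per array.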

Additional observations from a re-analysis of the deposited data

Results flagged for a closer look

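In 6 of the groups of animals tested over the member probe sets (4.41%), 1 animal lay far from the rest by Dixon's criterion, about the 1 in 20 that chance gives. MYL6B stood at 10.68 in high IMF replicate 8, an S animal, with the next of the 10 high IMF animals at 9.15. Low IMF replicate 2, without an S, was lowest for the dimmest ATP2A2 probe set among the other animals (7.33, next 7.93), and, in its own cell, for the second ATP2A2 probe set (13.24, next 13.57) and the second TNNC1 probe set (13.84, next 13.88). High IMF replicate 7 was highest for the third ATP2A2 probe set in its cell (7.90, next 7.41), and high IMF replicate 2 was lowest for MYL2 among the other animals (13.71, next 13.78).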

How the results depend on the processing

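No paired analysis was possible because the labels pair no animals. Of 579 single results under settings that left out no single animal, 540 kept direction and side of the threshold and 27 turned sign. Differences that turned sign on centring were 0.024 for the second MYH7 and 0.0079 for the second TNNC1 probe set (high against low IMF), 0.046 for MYL2 (S against other), and within the other animals 0.00019 for the brightest MYH7 and 0.0059 for the brighter TNNC1 probe set. With quantile normalization they were 0.038 for MYL2 and 0.032 for the brighter TNNC1 (S against other), and 0.079 for the latter within the other animals. Without the 2 dimmest arrays they were 0.0079 for the second TNNC1, 0.0014 for the brightest and 0.18 for the dimmest ATP2A2 (IMF), 0.026 for MYL2 (S against other), 0.019 for MYL2, 0.11 for MYL3 and 0.0066 for the brighter TPM3 within S animals, and 0.32 for MYL3 in the difference of effects. Without the 4 arrays high in albumin they were 0.000962 for the second TNNC1 and 0.013, 0.0063 and 0.21 for the brightest, the third and the dimmest ATP2A2 (IMF), and for MYL6B -0.069 (S against other) and -0.048 within S animals. With title kind as a covariate, alternatives chosen after seeing the data gave 0.0013 for the second TNNC1 and 0.049 for the dimmest ATP2A2 without the dimmest arrays, 0.012 for the second MYH7 without the albumin-high ones, and 0.024 and 0.0079 for the second MYH7 and TNNC1 with centring. Correlated pairs called numbered 10 with the deposited scaling, 12 with quantile normalization and 8 without the 2 dimmest arrays, against 5. The cause was not tested.

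With 1 animal left out, 973 of 1000 results kept direction and call. Ranges that crossed 0 were -0.28 to 0.0060 for the dimmest ATP2A2 and -0.059 to 0.020 for the second MYH7 (IMF), -0.032 to 0.0056 for MYL2 (S against other), -0.34 to 0.43 for MYL6B and -0.28 to 0.022 for the brighter TPM3 within S animals, and -0.049 to 0.0061 for the brightest MYH7 and -0.029 to 0.00061 for the brighter TNNC1 within the others. The brighter TNNC1 (S against other) ranged from -0.13 to -0.10 and lost its call without 16 of 20 animals, each left out in turn. The count called within the other animals went from 0 to 1 with high IMF replicate 4 left out.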
